A study of Mus musculus with 10 samples.

Results

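The 10 genes described here encode ligands of the tumour necrosis factor (TNF) family: Tnf, Lta, Ltb, Tnfsf4, Tnfsf8, Tnfsf10, Tnfsf11, Tnfsf14, Cd40lg and Fasl. They were taken by name and not by their values, and are 10 of the 19048 genes named in both deposited tables. All 10 lay among the 12485 genes that were bright enough to be tested, with a mean signal that reached the 30th percentile in each table. Splenic CD3+ T cells of 12-week-old Balb/C males gave the RNA, which was hybridised to Affymetrix arrays. Mice labelled as KLF13 knockout (KO1 to KO5) were compared with wild-type mice (WT1 to WT5), and the labels give each array a mouse of its own. Cells of both genotypes had been activated alike for 4 days, on a plate coated with antibody to CD3 and with antibody to CD28 in solution. The sources used here do not give how the knockout allele was made, which part of the gene it lacks or in which cells it acts.

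Ligands of the TNF family are mostly membrane proteins that work as trimers, on the cell surface or after release by a protease, and bind receptors of the TNF receptor superfamily on the same or a neighbouring cell. In T cells most of them are induced through the T cell receptor and CD28, and they carry help to B cells and dendritic cells, keep activated T cells alive, build lymphoid tissue and kill target cells. KLF13 is a zinc-finger transcription factor of the KLF and SP family, whose members bind CACCC and GC boxes in DNA.

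Levels are log2 signals after robust multi-array averaging (RMA), so a difference of 1 unit stands for a ratio of 2, and differences are given as knockout minus wild type. Replicates 1 to 3 of each genotype were in an exon-level table, where a gene's level is the mean over its probe sets, and replicates 4 and 5 in a gene-level table, where each ligand has 1 probe set. The array medians formed 3 sets of different scale: 5.23 in KO1 and 5.21 in WT1, then 6.25 to 6.40 in KO2 and KO3 and 6.42 to 6.43 in WT2 and WT3, then 4.25 to 4.30 in KO4 and KO5 and 4.18 to 4.30 in WT4 and WT5. Each knockout array was therefore set only against the wild-type arrays of its own set, and the limma fit over all arrays had the replicate set as a block. The interquartile range of KO3 was 3.10, where the remaining arrays of the exon-level table had 3.43 to 3.56. Replicates 2 and 3 also differed over the whole array: the median difference of all tested genes was -0.22 there, against -0.02 in replicate 1 and -0.01 in replicates 4 and 5. Over the 625 brightest genes these medians were -0.79, -0.19 and -0.07 in the same order. The 7 T cell markers found in both tables, of 8 listed, all passed the brightness filter. Their summed linear signal was 7082 to 7191 in KO2 and KO3, against 15724 to 16409 in WT2 and WT3. Much of that sum was Cd3g, at 2181 to 2490 in KO2 and KO3, against 7899 to 8383 in WT2 and WT3. The other T cell markers summed to 4592 to 5010, against 7825 to 8026. The median difference of the 7 was -0.67 in replicates 2 and 3. In replicate 1 the sum of all 7 was 5116 in KO1, against 7414 in WT1, with a median difference of -0.31. In the gene-level table the sum of all 7 was 8137 to 8886 in KO4 and KO5, against 7890 to 8622 in WT4 and WT5. Quantile normalization within each table brought the median difference of all tested genes in replicates 2 and 3 to -0.06. The part of these array-wide differences in any result on the ligands was not tested.

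As a check of the labels, Klf13 itself was at 5.41 in KO1, 6.16 in KO2 and 6.07 in KO3, and 6.21 in KO4 and 6.46 in KO5. The wild-type values were 6.03 in WT1, 6.95 in WT2 and 6.89 in WT3, and 7.21 in WT4 and 7.54 in WT5. Every knockout array was below the wild-type arrays of its set, and limma called the difference over all arrays (-0.86 ± 0.12, SE, 5 against 5, adjusted p = 0.0127). That call was lost without any 1 of WT2, WT3, WT4, KO4 and KO5 (adjusted p from 0.0507 to 0.0689).

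The TNF family ligands did not move together. Tnfsf4 and Tnfsf14, both ligands that costimulate T cells, fell in KO4 and KO5, to 0.488 and 0.642 of their level in WT4 and WT5. Tnf, Ltb, Tnfsf8 and Tnfsf10 lay higher in both of these knockout arrays than in both wild-type arrays, with differences of 0.17 to 0.53 that did not pass. Over all 10 arrays no ligand passed the adjusted threshold of 0.05 (limma, smallest adjusted p = 0.282), while 0.585% of all tested genes did. At an unadjusted p under 0.05 there were 2 of 10 ligands, Tnfsf14 and Tnfsf4, both lower, against 14.9% of all tested genes in either direction. In replicates 4 and 5 alone 2 of 10 ligands passed, against 2.72% of all tested genes, and both were lower, where 1.99% of all tested genes were called lower and 0.721% higher. There 6 of 10 ligands had an unadjusted p under 0.05 (limma), against 1993 of the 12485 tested genes in either direction. Of the 6 ligands, Tnfsf4, Tnfsf14 and Fasl were lower, and Tnf, Ltb and Tnfsf10 were higher. In replicates 2 and 3 alone limma called no ligand and no gene at all (0%); 2 ligands, Tnfsf4 and Tnfsf8, had an unadjusted p under 0.05, both lower, against 9.52% of all tested genes in either direction.

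Read by sign, 3 ligands had a positive difference in each replicate set (Tnf, Lta and Tnfsf11), 1 a negative one in each (Tnfsf14), and 6 were mixed. Of all tested genes 11.3% were positive and 24.8% negative in each set. No ligand was lower in every knockout array than in the wild-type arrays of its set, a pattern held by 10.8% of the tested genes, and none was higher in every one, a pattern held by 1.63%. In replicates 4 and 5 alone 4 ligands were higher in both knockout arrays than in both wild-type arrays, as were 20.3% of the tested genes, and 3 were lower, as were 26%. In replicates 2 and 3 none was higher in that way, against 11.7% of the tested genes, and 4 were lower (Ltb, Tnfsf4, Tnfsf8 and Tnfsf10), against 43.1%. With the median over exon-level probe sets in place of their mean, the difference of Tnfsf14 in replicates 2 and 3 was 0.02. The same change moved Cd40lg there from -0.32 to -1.09, Lta from 0.18 to 0.81, Fasl from 0.07 to 0.69 and Tnfsf11 from 0.34 to 0.77. It moved the other ligands less. The median difference of the 10 ligands was 0.09 in replicate 1, -0.30 in replicates 2 and 3, and 0.16 in replicates 4 and 5. The corresponding medians of all tested genes are given above. Over all arrays the median was -0.05 for the ligands, beside -0.10 for all tested genes. Under quantile normalization within each table the largest shortfalls in replicates 2 and 3 became -0.86 for Tnfsf10, -0.61 for Tnfsf4, -0.37 for Tnfsf8 and -0.22 for Ltb, against -0.93, -0.79, -0.84 and -0.52 as deposited. RNA came from bulk cultures, so fewer cells making a ligand and less of its RNA per cell cannot be told apart in any of these values.

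**Figure D1:**
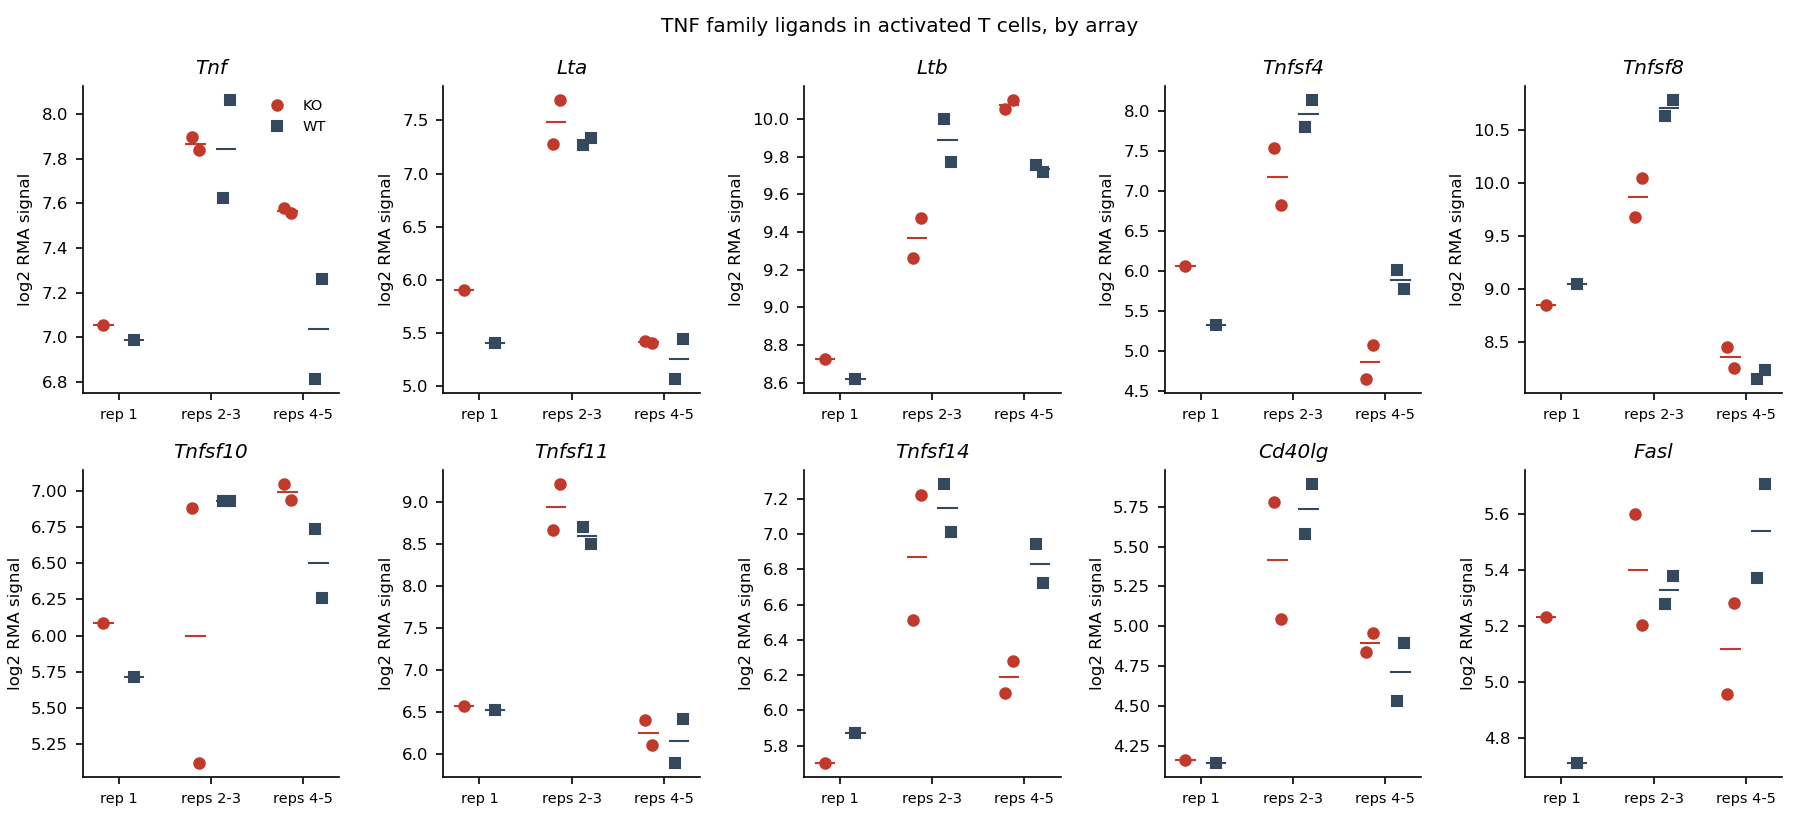
Level of each TNF family ligand by array, as log2 RMA signal on the vertical axis, with 1 panel per gene and its own axis range. Circles are knockout arrays and squares wild-type arrays, in the order replicate 1, replicates 2 and 3, replicates 4 and 5; short lines are group means, and levels are comparable only within a replicate set. The knockout circles of Tnfsf4 lie below the wild-type squares in replicates 2 to 5 and above in replicate 1, and those of Tnf, Ltb, Tnfsf8 and Tnfsf10 lie above in replicates 4 and 5.

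Tnfsf4 encodes OX40 ligand, best known on activated antigen-presenting cells and also made by activated T cells, which sustains T cells through the receptor OX40. Its level was 6.06 in KO1, 7.53 in KO2 and 6.82 in KO3, and 4.64 in KO4 and 5.07 in KO5. In the wild type it was 5.33 in WT1, 7.79 in WT2 and 8.13 in WT3, and 6.01 in WT4 and 5.77 in WT5. The groups did not overlap within replicates 2 and 3 or within replicates 4 and 5, with the knockout lower in both, but KO1 stood above WT1. In replicates 4 and 5 Tnfsf4 fell by 1.03 on the log2 scale (± 0.17, SE, 2 against 2, limma adjusted p = 0.0166), and it passed under each of the 11 alternative settings of that comparison, with adjusted p from 1.51e-06 to 0.0367. The difference was -0.79 ± 0.32 (SE) in replicates 2 and 3 and 0.73 in replicate 1, which has 1 array per genotype. Over all arrays it was -0.58 ± 0.25 (SE, 5 against 5, adjusted p = 0.311), with a 95% interval of -1.14 to -0.03. Leaving out KO1 or WT1, which leaves the other with no partner, gave -0.91 (adjusted p = 0.0975), and leaving out replicates 4 and 5 of both genotypes gave -0.28. The receptor gene Tnfrsf4, which encodes OX40, differed by -0.45 ± 0.12 over all arrays (SE, adjusted p = 0.157) and passed without KO3 (adjusted p = 0.0425).

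Tnfsf4 is also made by B cells and other antigen-presenting cells, so their markers are given beside it. The 11 B and plasma cell markers in both tables, of which 5 passed the brightness filter, summed to 754 to 808 in KO4 and KO5, against 913 to 961 in WT4 and WT5. Most of that sum was Xbp1, a plasma cell factor that T cells express too, at 586 to 629 in KO4 and KO5, against 745 to 802 in WT4 and WT5. The other B and plasma cell markers, most of them too dim to be tested, summed to 169 to 179 in KO4 and KO5. In WT4 and WT5 they summed to 159 to 168. The mean log2 level of all 11 was 4.30 to 4.36 in KO4 and KO5, against 4.22 to 4.26 in WT4 and WT5, and the median difference of the 5 tested was 0.10. The 12 myeloid and dendritic cell markers, of which 3 passed the filter, summed to 206 to 224 in KO4 and KO5, against 204 to 206 in WT4 and WT5. The labels name the cells as isolated for CD3, by a method not given in the sources used here, which also give no purity. The part of B or other antigen-presenting cells in the Tnfsf4 difference was not tested.

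Tnfsf14 encodes LIGHT, which costimulates T cells through the receptor HVEM and also binds the lymphotoxin beta receptor. It was the only ligand of the 10 with a negative difference in each replicate set. Its promoter and that of Tnf, which had a positive difference in each set, are shown because KLF family proteins bind CACCC. Both are RefSeq sequences of the assembly GRCm38.p6 on the minus strand of chromosome 17, read 5′ to 3′ from 250 bases before the gene start to 50 after it. They lie at chr17:57194132-57194431 for Tnfsf14 and chr17:35201958-35202257 for Tnf, and capitals mark CACCC or its complement GGGTG.
Tnfsf14: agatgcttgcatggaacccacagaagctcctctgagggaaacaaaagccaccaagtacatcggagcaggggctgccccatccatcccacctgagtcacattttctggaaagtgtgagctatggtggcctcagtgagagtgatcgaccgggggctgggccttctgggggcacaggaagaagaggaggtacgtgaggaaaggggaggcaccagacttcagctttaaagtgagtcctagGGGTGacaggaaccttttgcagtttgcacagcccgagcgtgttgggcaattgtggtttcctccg
Tnf: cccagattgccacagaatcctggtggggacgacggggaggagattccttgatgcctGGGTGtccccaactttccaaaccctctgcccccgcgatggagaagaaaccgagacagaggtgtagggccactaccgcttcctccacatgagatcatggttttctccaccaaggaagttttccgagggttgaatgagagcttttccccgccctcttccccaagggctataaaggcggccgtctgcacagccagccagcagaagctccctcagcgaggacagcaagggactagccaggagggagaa
Each of these windows holds 1 match, GGGTG in both. CACCC on either strand occurred in 7 of the 8 ligands with a promoter entry (not Tnfsf4 and Cd40lg), all but Tnfsf10, and in 57.5% of all 32851 promoters of the same length. Ltb had the most matches among the 8, with 5. The GC box GGGCGG, on either strand, occurred in 2 of the 8 (Tnf and Fasl) and in 35.7% of all promoters, and the core GGAAAA of NFAT sites in the same 2 ligands and in 23.4%. Such a match describes the letters and not binding.

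The level of Tnfsf14 was 5.70 in KO1, 6.51 in KO2 and 7.22 in KO3, and 6.10 in KO4 and 6.28 in KO5. It was 5.87 in WT1, 7.28 in WT2 and 7.01 in WT3, and 6.94 in WT4 and 6.72 in WT5. The knockout was lower in 4 of 5 arrays, and KO3 lay between WT2 and WT3. In replicates 4 and 5 Tnfsf14 fell by 0.64 on the log2 scale (± 0.14, SE, 2 against 2, limma adjusted p = 0.0447). That call was lost without WT4 (adjusted p = 0.115), without KO4 (0.225) and without KO5 (0.0526). Over all arrays the difference was -0.40 ± 0.16 (SE, 5 against 5, adjusted p = 0.282; 95% interval -0.75 to -0.06), and without KO3 it was -0.53 and passed (adjusted p = 0.0240).

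**Figure D2:**
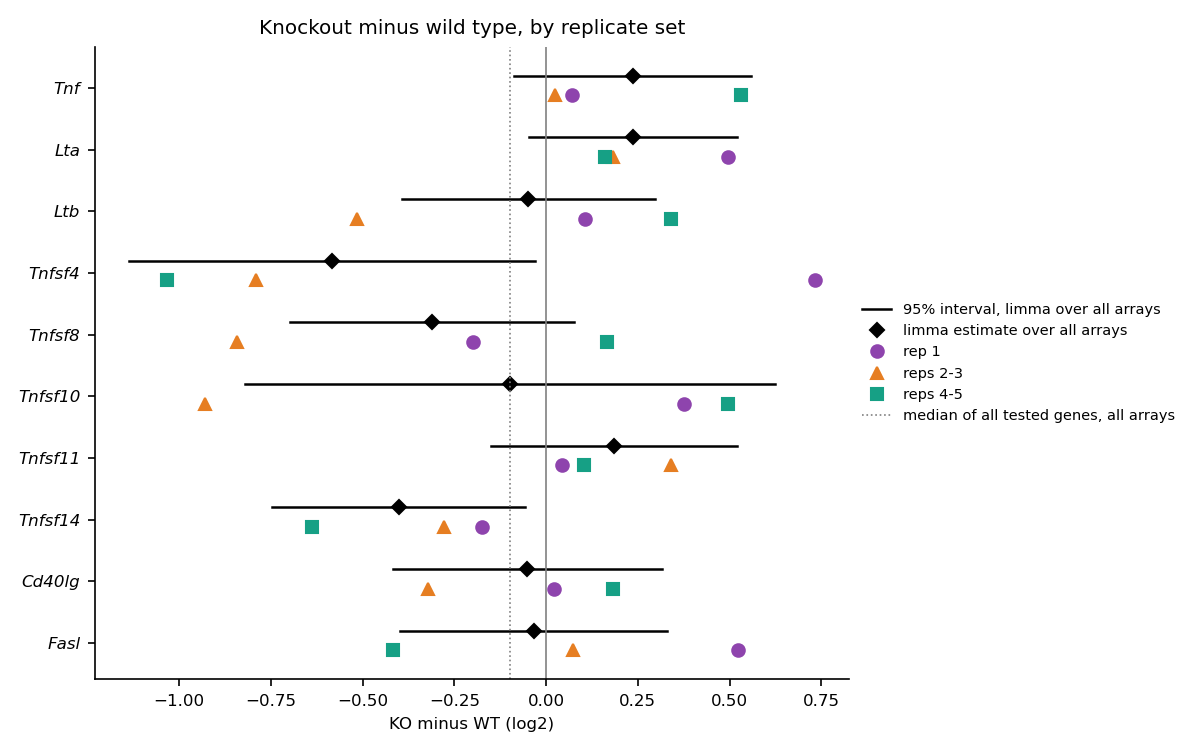
Knockout minus wild type (log2) of each TNF family ligand. Coloured symbols are the differences within replicate 1, replicates 2 and 3, and replicates 4 and 5; diamonds with lines are limma estimates over all 10 arrays with 95% intervals, and the dotted line is the median of all tested genes at -0.10. The intervals of Tnfsf4 (-1.14 to -0.03) and Tnfsf14 (-0.75 to -0.06) lie below 0, and those of the other 8 include it.

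Tnf, Lta and Ltb lie side by side on chromosome 17 in the RefSeq order of genes (GRCm38.p6), with no other protein-coding gene between Tnf and either of the other two. Tnf is the founding inflammatory cytokine of the family. Its level was 7.06 in KO1, 7.90 in KO2 and 7.84 in KO3, and 7.58 in KO4 and 7.55 in KO5. In the wild type it was 6.99 in WT1, 7.62 in WT2 and 8.06 in WT3, and 6.81 in WT4 and 7.26 in WT5. The knockout was higher without overlap in replicates 4 and 5, and lay within the wild-type range in replicates 2 and 3. The difference was 0.53 ± 0.16 in replicates 4 and 5 (SE, limma adjusted p = 0.128), and 0.02 in replicates 2 and 3. It passed in replicates 4 and 5 without WT5 (0.75, adjusted p = 0.0145), where WT4 alone stands for the wild type. Over all arrays it was 0.24 ± 0.15 (SE, adjusted p = 0.437), with a 95% interval of -0.09 to 0.56.

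Lta encodes lymphotoxin alpha, which is secreted or joins lymphotoxin beta on the cell surface. Its level was 5.90 in KO1, 7.28 in KO2 and 7.69 in KO3, and 5.42 in KO4 and 5.41 in KO5, against 5.41 in WT1, 7.27 in WT2 and 7.34 in WT3, and 5.06 in WT4 and 5.44 in WT5. KO1 was above WT1, and in the other replicate sets the genotypes overlapped. The difference over all arrays was 0.24 ± 0.13 (SE, limma adjusted p = 0.398), with a 95% interval of -0.05 to 0.52.

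Ltb encodes lymphotoxin beta, the membrane anchor of that complex, which acts on stromal and myeloid cells through the lymphotoxin beta receptor. It was at 8.73 in KO1, 9.26 in KO2 and 9.48 in KO3, and 10.05 in KO4 and 10.10 in KO5, against 8.62 in WT1, 10.00 in WT2 and 9.77 in WT3, and 9.75 in WT4 and 9.72 in WT5. The groups did not overlap in either set of 4 arrays, but the knockout was the lower in replicates 2 and 3 (-0.52 ± 0.24, SE) and the higher in replicates 4 and 5 (0.34 ± 0.12, SE, limma adjusted p = 0.199). Over all arrays the difference was -0.05 ± 0.16 (SE, adjusted p = 0.861; 95% interval -0.39 to 0.30), and its sign turned to positive under quantile normalization (0.092). The 3 neighbouring genes thus had positive differences in replicates 4 and 5, where the genotypes overlapped for Lta but not for Tnf and Ltb. In replicates 2 and 3 Tnf and Lta had positive differences with overlap, and Ltb a negative one without overlap. Of all tested genes 52.5% were below 0 in replicates 4 and 5 and 65.2% in replicates 2 and 3.

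Fasl and Tnfsf10 encode the death ligands of T cells, Fas ligand and TRAIL. Fasl was at 5.23 in KO1, 5.60 in KO2 and 5.20 in KO3, and 4.96 in KO4 and 5.28 in KO5, against 4.71 in WT1, 5.28 in WT2 and 5.38 in WT3, and 5.37 in WT4 and 5.71 in WT5. It was higher in KO1 (0.52), overlapping in replicates 2 and 3 (0.07), and lower in KO4 and KO5 (-0.42 ± 0.16, SE, limma adjusted p = 0.240). Over all arrays the difference was -0.03 ± 0.17 (SE, adjusted p = 0.908), with a 95% interval of -0.40 to 0.33. Fas ligand is also made by NK cells, whose 7 markers in both tables, 4 of them past the brightness filter, summed to 1045 to 1095 in KO4 and KO5, against 1370 to 1544 in WT4 and WT5. Most of that sum was Gzma, a granzyme gene that activated T cells express too, at 882 to 925 in KO4 and KO5, against 1239 to 1383 in WT4 and WT5. The other NK cell markers, some of them too dim to be tested, summed to 163 to 170 in KO4 and KO5. In WT4 and WT5 they summed to 132 to 161. The median difference of the 4 tested was 0.15 in replicates 4 and 5. The 3 markers of the CD8 lineage, whose cytotoxic cells make Fas ligand too, summed to 3359 to 3738 in KO4 and KO5, against 2819 to 3076 in WT4 and WT5. The part of NK or CD8 cells in the Fasl difference was not tested.

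Tnfsf10 was at 6.09 in KO1, 6.88 in KO2 and 5.12 in KO3, and 7.05 in KO4 and 6.94 in KO5. The wild-type arrays read 5.71 in WT1, 6.93 in WT2 and 6.93 in WT3, and 6.73 in WT4 and 6.26 in WT5. KO1, KO4 and KO5 were above the wild-type arrays of their sets, KO2 differed from the mean of its set's wild-type arrays by -0.05, and KO3 differed from it by -1.81. The difference was 0.49 ± 0.16 in replicates 4 and 5 (SE, limma adjusted p = 0.169) and passed there without WT4 (0.73, adjusted p = 0.0282). Over all arrays it was -0.10 ± 0.33 (SE, adjusted p = 0.864; 95% interval -0.82 to 0.62), and without KO3 it was 0.30 (adjusted p = 0.197). The gene of a TRAIL receptor, Tnfrsf10b, differed by -0.46 over all arrays and did not pass (adjusted p = 0.259).

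Tnfsf8 encodes CD30 ligand, made by activated T cells and by B cells and known to signal to CD30-bearing lymphocytes. It was at 8.85 in KO1, 9.68 in KO2 and 10.05 in KO3, and 8.45 in KO4 and 8.26 in KO5, against 9.05 in WT1, 10.63 in WT2 and 10.78 in WT3, and 8.14 in WT4 and 8.23 in WT5. The knockout was lower in replicate 1 and, without overlap, in replicates 2 and 3, and slightly higher without overlap in replicates 4 and 5. The T cell marker sum was also lower in replicate 1 and in replicates 2 and 3, and its part in the Tnfsf8 difference was not tested. The differences were -0.84 ± 0.25 in replicates 2 and 3 (SE, limma adjusted p = 0.473) and 0.17 ± 0.13 in replicates 4 and 5 (SE, adjusted p = 0.601). Over all arrays the difference was -0.31 ± 0.18 (SE, adjusted p = 0.408), with a 95% interval of -0.70 to 0.08. Its receptor gene Tnfrsf8, which encodes CD30, fell to 0.421 of the wild-type level over all arrays (log2 difference -1.25 ± 0.15, SE, adjusted p = 0.00765). Tnfrsf8 was at 7.73 in KO1, 7.53 in KO2 and 6.81 in KO3, and 7.44 in KO4 and 7.19 in KO5, against 8.73 in WT1, 8.35 in WT2 and 8.29 in WT3, and 8.87 in WT4 and 8.69 in WT5. All 5 knockout arrays were lower for the receptor, where the ligand was lower in 3 of 5.

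Tnfsf11 encodes RANK ligand, which drives osteoclast formation and lymph node development and is made by activated T cells. Its level was 6.57 in KO1, 8.66 in KO2 and 9.21 in KO3, and 6.40 in KO4 and 6.11 in KO5, against 6.53 in WT1, 8.69 in WT2 and 8.50 in WT3, and 5.89 in WT4 and 6.42 in WT5. The genotypes overlapped in both sets of 4 arrays, and the difference over all arrays was 0.19 ± 0.15 (SE, limma adjusted p = 0.522), with a 95% interval of -0.15 to 0.52. Tnfrsf11a, the gene of its receptor RANK, differed by 0.43 (adjusted p = 0.270).

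Cd40lg encodes CD40 ligand, the signal by which helper T cells activate B cells and dendritic cells. Its level was 4.16 in KO1, 5.78 in KO2 and 5.05 in KO3, and 4.84 in KO4 and 4.96 in KO5, against 4.14 in WT1, 5.58 in WT2 and 5.89 in WT3, and 4.53 in WT4 and 4.90 in WT5. The genotypes overlapped in both sets of 4 arrays. Over all arrays the difference was -0.05 ± 0.17 (SE, limma adjusted p = 0.863; 95% interval -0.42 to 0.32), and without KO3 it was 0.10. The signal of Cd40lg was low, with 4 of its 7 exon-level probe sets bright enough to be tested. In replicates 1 to 3 its level lay below the median of each array.

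The exon-level table held 67 probe sets for the 10 ligands, from 3 to 11 each, of which 56 were bright enough to be tested. Limma called 0 of these 56 and 0% of all 169103 probe sets tested, and 7 of the ligands' 56 had an unadjusted p under 0.05, against 4.67% of all probe sets tested. Those 7 were 3 of Tnfsf8, 3 of Tnfsf14 and 1 of Lta. The sources used here do not place a probe set along its gene, so the IDs are named without a position.

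Within Tnfsf14 the probe sets went opposite ways. Probe set 10452311 read 4.80 in KO1, 4.78 in KO2 and 3.80 in KO3, against 5.65 in WT1, 6.62 in WT2 and 6.48 in WT3 (difference -1.79 ± 0.44, SE, limma adjusted p = 0.743). All 3 knockout values lay under all 3 wild-type values. Probe set 10452315 read 4.27 in KO1, 5.97 in KO2 and 6.39 in KO3, against 3.29 in WT1, 5.66 in WT2 and 5.47 in WT3, so that each knockout value lay above the wild-type values of its set. In KO3 the differences of the 8 Tnfsf14 probe sets from the mean of WT2 and WT3 ranged from -2.75 to 1.47, and 3 of 8 were negative. In KO2, against the same arrays, 7 of 8 were negative, and in KO1 against WT1 6 of 8. The gene-level mean of KO3, which lay between the wild-type arrays, is thus an average of large differences of both signs.

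For Tnfsf8 all 7 probe sets were lower in KO1 than in WT1, with differences of -0.40 to -0.02. Probe set 10513730 read 10.11 in KO1, 11.00 in KO2 and 11.64 in KO3, against 10.51 in WT1, 13.32 in WT2 and 13.25 in WT3. Its difference in replicates 2 and 3 was -1.96, that of 10513731 was -1.57 and that of 10513732 was -1.49, while that of 10513736 was 0.48. The sign in replicates 2 and 3 was thus not the same over the probe sets of Tnfsf8.

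For Tnfsf10 the low level of KO3 lay in 5 of its 6 probe sets, with differences from the wild-type mean down to -2.60, while 10491092 differed from it by 0.04. KO2 differed from that mean by -0.39 to 0.21 over the same 6 probe sets. Cd40lg had the same feature in part, with 10599804 at 4.36 and 10599805 at 5.02 in KO3, against 6.30 and 6.85 in KO2, 6.23 and 7.04 in WT2, and 6.60 and 7.36 in WT3. For Tnfsf4 all 3 probe sets were higher in KO1 than in WT1, by 0.25 to 1.57, and all 3 were lower than the mean of WT2 and WT3, with differences of -0.59 to -0.27 in KO2 and -1.87 to -0.63 in KO3. The opposite signs of replicate 1 and replicates 2 and 3 for Tnfsf4 were thus common to its probe sets. For Fasl 10 of 11 probe sets were higher in KO1 than in WT1, 7 of 11 in KO2 and 4 of 11 in KO3 than the mean of WT2 and WT3. Of these 11 only 6 were bright enough to be tested, and all the dimmer ones were among the 10 higher in KO1.

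The 11 probe sets of Tnfsf11 differed from the wild-type mean by -0.97 to 3.06 in KO3, a range exceeded among the ligands only by that of Tnfsf14. Probe set 10421747 read 10.94 in KO3, against 7.29 in KO2, 8.25 in WT2 and 7.50 in WT3. Across the 11 probe sets, which share an array and a gene and are no replicates, the levels of KO3 correlated with the mean of WT2 and WT3 at r = 0.33, and those of KO2 at r = 0.97. The wild-type arrays themselves differed between sets in the same way: the levels of WT1 correlated with that mean at r = -0.22, and 10421738 read 5.48 in WT1, against 10.79 in WT2 and 11.01 in WT3. The spread over a gene's probe sets of the difference from wild type had a median SD of 0.90 for the 10 ligands in KO3, 0.29 in KO2 and 0.52 in KO1. Over all 16913 genes with at least 3 probe sets these medians were 0.88, 0.38 and 0.49. WT3 minus WT2 gave 0.43 for the ligands and 0.37 for all genes, so the wide spread in KO3 was shared with the rest of the array.

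**Figure D3:**
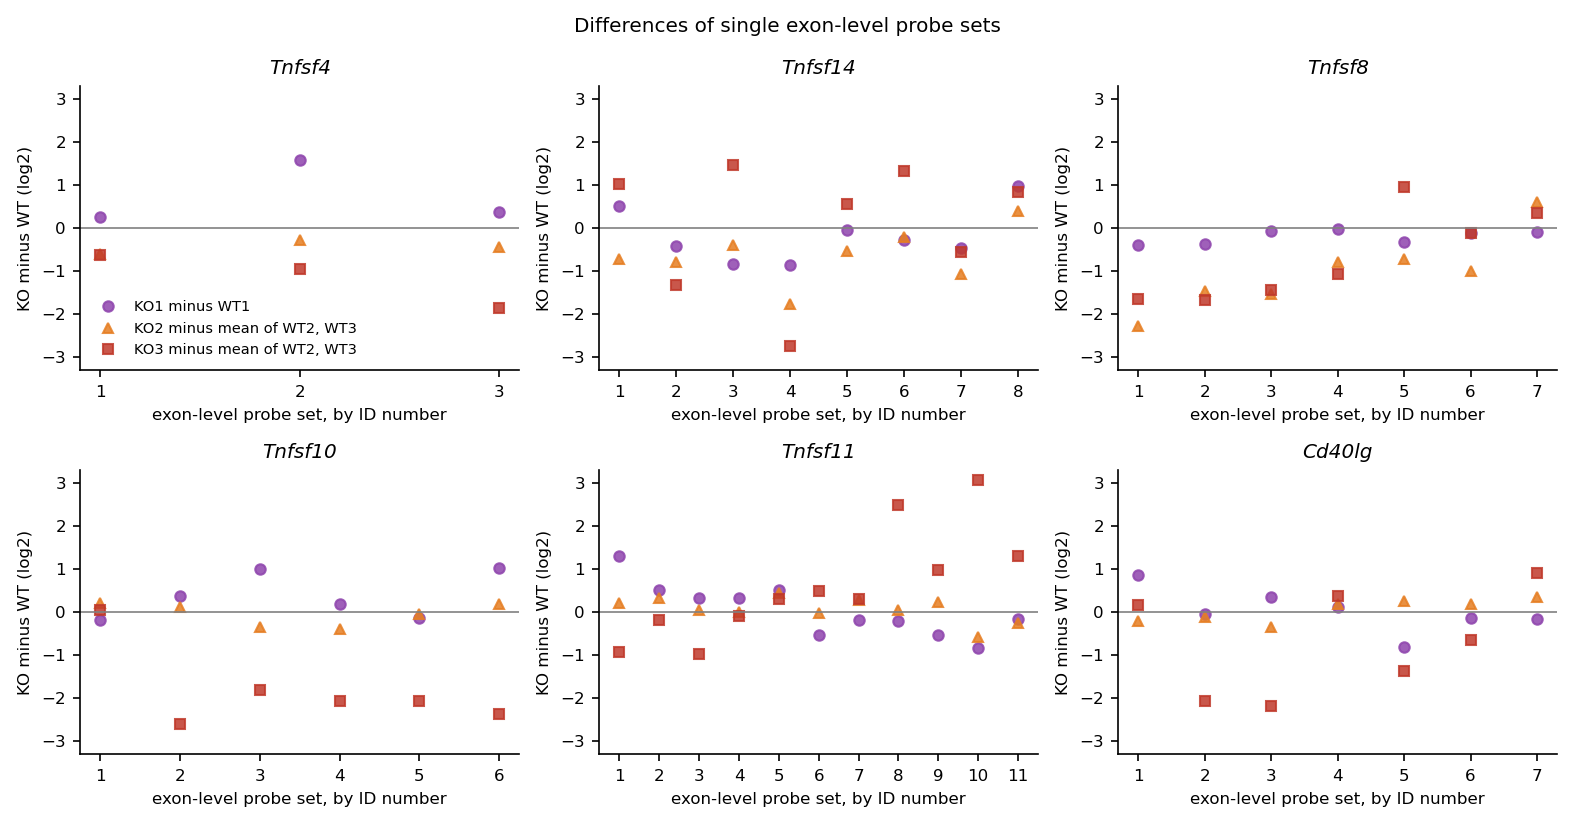
Difference from wild type (log2) of each exon-level probe set of 6 TNF family ligands, in the order of the probe set IDs, which is not a position along the gene. Circles are KO1 minus WT1, triangles KO2 and squares KO3, each minus the mean of WT2 and WT3. The squares of Tnfsf14 run from -2.75 to 1.47 and those of Tnfsf11 from -0.97 to 3.06, while the triangles of Tnfsf11 stay between -0.59 and 0.44.

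Whether a ligand's difference depended on the table was tested as an interaction, the difference in replicates 4 and 5 minus that in replicates 1 to 3. Limma called no ligand and no gene (0%), with 2 of 10 ligands at an unadjusted p under 0.05, against 5.27% of all tested genes. These were Tnfsf8 (0.79 ± 0.29, SE, adjusted p = 0.872; 95% interval 0.16 to 1.43) and Ltb (0.65 ± 0.27, SE, adjusted p = 0.872; 95% interval 0.05 to 1.24). For Tnfsf4, where replicate 1 stood apart, the interaction was -0.75 ± 0.49 (SE), with a 95% interval of -1.83 to 0.33.

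The other ligands of the superfamily were represented by a list of 8, of which 6 were in both tables and 2 were bright enough to be tested. Tnfsf15, next to Tnfsf8 on chromosome 4, and Eda differed by 0.02 each over all arrays and did not pass. Among those too dim to be tested, Tnfsf9, the ligand of 4-1BB, read 3.47 in KO1, 5.34 in KO2 and 5.04 in KO3, and 4.35 in KO4 and 4.43 in KO5, against 3.91 in WT1, 4.99 in WT2 and 4.86 in WT3, and 4.99 in WT4 and 4.64 in WT5. It was thus higher in KO2 and KO3 and lower in the other 3 knockout arrays. Cd70, which lies between Tnfsf14 and Tnfsf9, read 3.16 in KO4 and 3.03 in KO5, against 3.08 in WT4 and 2.91 in WT5. Tnfsf18, which lies between Tnfsf4 and Fasl on chromosome 1, read 2.64 in KO4 and 2.88 in KO5, against 2.64 in WT4 and 2.55 in WT5. Tnfsf13b, which encodes BAFF, read 3.77 in KO4 and 3.59 in KO5, against 3.48 in WT4 and 3.65 in WT5. In these arrays the genotypes overlapped for Cd70 and Tnfsf13b and met at 2.64 for Tnfsf18.

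Of the 22 receptor genes listed, all in both tables, 20 were tested. Over all arrays 2 of the 20 fell and 0 rose, where 0.489% of all tested genes were called lower, and 8 had an unadjusted p under 0.05, against 14.9% of all tested genes. The list median was -0.03. Beside Tnfrsf8, the second was Tnfrsf23, a decoy receptor for TRAIL in mice (-0.61 ± 0.10, SE, limma adjusted p = 0.0306). It read 4.31 in KO1, 5.17 in KO2 and 5.03 in KO3, and 4.58 in KO4 and 4.57 in KO5, against 4.89 in WT1, 5.67 in WT2 and 5.84 in WT3, and 5.11 in WT4 and 5.19 in WT5, so that all 5 knockout arrays were lower. The call of Tnfrsf23 over all arrays was lost without any 1 of the arrays other than KO2 and KO3 (adjusted p from 0.0919 to 0.131). In replicates 4 and 5 the same 2 fell, Tnfrsf23 only with all 4 arrays present (adjusted p from 0.0559 to 0.164 without 1 of them), and Btla rose (0.66, adjusted p = 0.0425), a call lost without WT5 (0.0877), KO4 (0.132) or KO5 (0.0879); Btla encodes an inhibitory receptor that binds HVEM, the receptor of LIGHT. Of the other receptors listed, Tnfrsf9 and Tnfrsf18, the costimulators 4-1BB and GITR, differed by -0.60 and -0.66 (adjusted p = 0.141 and 0.162), and Tnfrsf9 passed without KO3 (adjusted p = 0.0440). Their own ligands, Tnfsf9 and Tnfsf18, were too dim to be tested. In replicates 2 and 3 these receptors differed by -0.97 and -1.23, where the brightest genes had a median of -0.79. In replicates 4 and 5 they differed by -0.26 and -0.13 and did not pass.

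No gene of the 14 tested adaptors and death signalling proteins passed, with 3 at an unadjusted p under 0.05 (14.9% of all tested genes), all 14 differences below 0 and a list median of -0.27, where 63.5% of all tested genes were below 0. The smallest p was that of Ripk3, a kinase of necroptosis (-0.56, limma adjusted p = 0.145; 0.0329 without KO3). None of the 13 NF-kB factors and kinases passed either, with 3 at an unadjusted p under 0.05, 11 of 13 below 0, a list median of -0.25 and Nfkb2, the p100 precursor, as the member of smallest p (-0.54, adjusted p = 0.154). Within replicates 2 and 3 the medians of these 2 lists were -0.61 and -0.67, and within replicates 4 and 5 they were -0.01 and -0.03. Of the 7 sheddases and release factors none passed, 2 had an unadjusted p under 0.05, and the smallest p was that of the proprotein convertase gene Furin (-0.35, adjusted p = 0.275; list median -0.22).

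Among 24 genes known to control transcription or mRNA stability of the ligands, 2 fell and 0 rose, where 0.489% of all tested genes were called lower, and 7 had an unadjusted p under 0.05, against 14.9% of all tested genes. The list median was -0.14. The 2 that fell were Batf, an AP-1 family factor of activated T cells (-1.17 ± 0.15, SE, limma adjusted p = 0.00827; lost without WT4, 0.0512, or KO4, 0.0505), and Gata3, the Th2 lineage factor (-1.17 ± 0.15, SE, adjusted p = 0.00827). Both also fell in replicates 4 and 5, Batf by 1.12 (adjusted p = 0.00669) and Gata3 by 0.89 (adjusted p = 0.0108) on the log2 scale, where Tnfsf4 and Tnfsf14 fell too. Their part in the levels of the ligands was not tested.

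**Figure D4:**
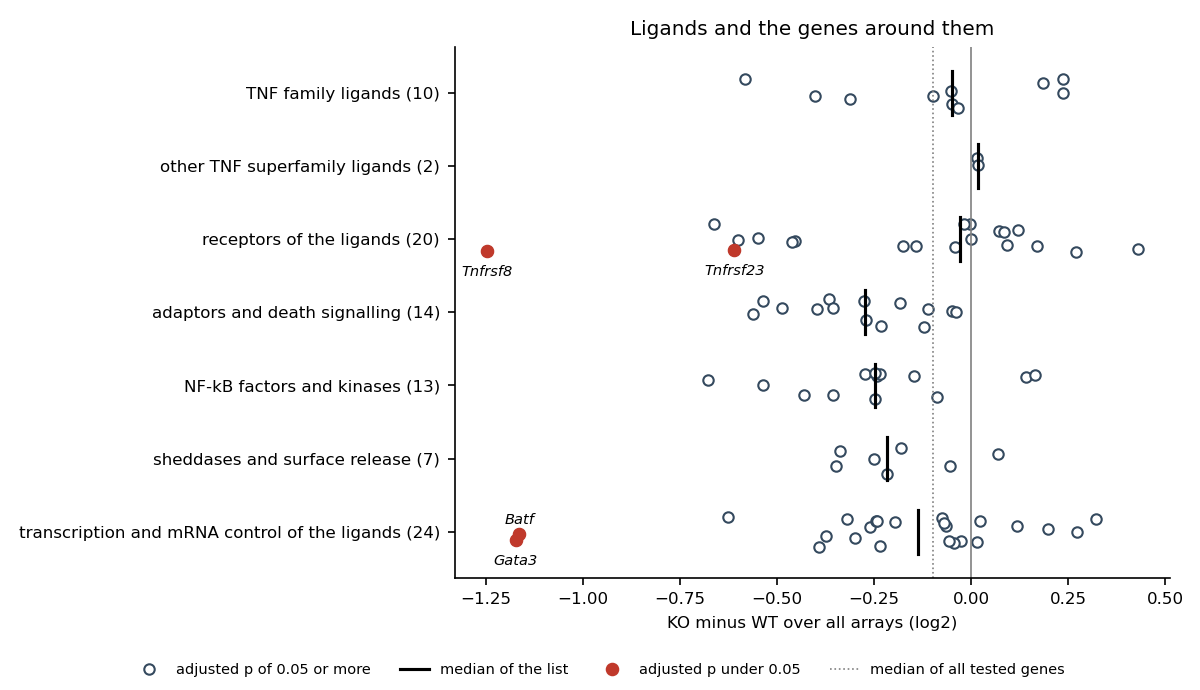
Knockout minus wild type over all arrays (log2, limma estimates) for the tested genes of the ligand list and of the 6 lists around it, with the number tested in brackets. Each circle is a gene, filled where its adjusted p is under 0.05; the vertical bar is the list median and the dotted line the median of all tested genes at -0.10. The ligand median is -0.05, and the 4 filled circles are Tnfrsf8 (-1.25), Tnfrsf23 (-0.61), Batf (-1.17) and Gata3 (-1.17).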

How the data were processed

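The values were deposited as log2 signals made with RMA, per the submitters' processing notes; its version and any other step were not given in the sources used here. Of the authors' tables, the exon-level one (241576 probe sets) held replicates 1 to 3 and the gene-level one (35556) replicates 4 and 5. The labels name an oligo(dT)-primed labelling kit. Probe sets were named from the platform annotation, with older symbols updated through RefSeq (GRCm38.p6); only probe sets with exactly 1 gene were used. Genes took the mean over their probe sets in the exon-level table and the brightest probe set in the gene-level table. Genes under the 30th percentile of mean log2 in either table were not tested.

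Fits used R 4.3.3 and limma 3.58.1 (lmFit, eBayes, 2-sided, Benjamini-Hochberg adjustment over all genes tested, threshold 0.05): knockout against wild type over all arrays with the 3 replicate sets as block, within replicates 2 and 3, within replicates 4 and 5, over exon-level probe sets, and the interaction with table. The scripts were tested on simulated data. Named were Klf13, the ligands, the other ligands of the superfamily in both tables, and per list up to 4 passing genes over all arrays or else the 1 of smallest p; Btla, Tnfrsf4, Tnfrsf9, Tnfrsf10b, Tnfrsf11a and Tnfrsf18 were added after their values were seen. The members, the lists and the replicate sets as block were chosen with earlier results of these data known. Pseudocounts were not used. The number of arrays limits the precision. Settings tried were other scalings, other probe set summaries, looser and stricter brightness filters, trend and robust options of eBayes, a block for the table or for the replicate number, and omission of single arrays or of a replicate set.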

Additional observations from a re-analysis of the deposited data

Results flagged for a closer look

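For 5 of the 10 ligands the knockout arrays of one replicate set all lay on one side of the wild-type arrays and those of another set on the opposite side, as for 33.9% of all tested genes, so the pattern is common in these arrays. These differences between sets were not tested pair by pair, and replicate 1 has only 1 array per genotype. For Tnfsf4 the knockout difference in replicate 1 exceeded that in replicates 2 and 3 by 1.52 and that in replicates 4 and 5 by 1.77 (log2). For Tnfsf10 replicate 1 exceeded replicates 2 and 3 by 1.30, and replicates 2 and 3 minus replicates 4 and 5 gave -1.42. For Ltb these 2 values were 0.62 and -0.86. For Tnfsf8 replicate 1 minus replicates 4 and 5 gave -0.37 and replicates 2 and 3 minus replicates 4 and 5 gave -1.01. For Fasl replicate 1 exceeded replicates 4 and 5 by 0.94.

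For 2 ligands KO3 stood apart from the other 4 knockout arrays, each taken as its difference from the wild-type mean of its set. Its gap to the nearest of them was 0.747 of the whole range for Tnfsf10 and 0.764 for Cd40lg, above Dixon's critical value of 0.710 for 5 samples. Chance flags about 1 group in 20. That rate holds for 5 values of like spread, and here they come from 3 sets of different scale. How many of all tested genes are flagged in this way was not counted. KO3 is also the array with the narrow interquartile range and the wide spread between probe sets given above.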

How the results depend on the processing

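The difference of Tnfsf4 kept its sign under all 23 alternatives over all arrays and all 11 in replicates 4 and 5, as did those of Tnf and Tnfsf14. For weak differences the sign turned. Over all arrays Ltb became 0.092 under quantile normalization within each table, 0.095 within each replicate set, 0.021 with the median of probe sets and quantile normalization, and 0.26 without replicates 2 and 3. Without replicates 2 and 3 Tnfsf10 became 0.45, Cd40lg 0.13, Tnfsf8 0.043 and Eda -0.095. Fasl became 0.17 with the median of probe sets, 0.16 with that median and quantile normalization, and 0.22 without replicates 4 and 5, and Eda became -0.026 and -0.027 under the first 2 of these. Leaving out 1 array gave -0.12 to 0.058 for Ltb, -0.26 to 0.30 for Tnfsf10, -0.14 to 0.10 for Cd40lg, -0.17 to 0.077 for Fasl, -0.041 to 0.065 for Tnfsf15 and -0.068 to 0.081 for Eda. In replicates 4 and 5 it gave -0.031 to 0.35 for Lta, -0.16 to 0.37 for Tnfsf11 and -0.0023 to 0.37 for Cd40lg. With the table as block the calls of Klf13, Tnfrsf8, Tnfrsf23, Batf and Gata3 over all arrays were lost, as they were without replicates 4 and 5. A block for the table does not separate replicate 1 from replicates 2 and 3, whose array medians differ as given above. The cause of these losses was not tested.

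The 73 genes called over all arrays became 4 with the table as block, 31 with the median of probe sets, 39 with that median and quantile normalization (13 higher and 26 lower, against 12 higher and 61 lower as reported), 254 without replicates 2 and 3 and 0 without replicates 4 and 5, these last being chosen after seeing the data; leaving out 1 array gave 12 (without KO4) to 362 (without KO3). The 339 called in replicates 4 and 5 became 517 with trend and robust, and 193 to 529 without 1 array. The 0 calls in replicates 2 and 3 became 1 to 9608 without 1 array, the most without KO2; those of the interaction 0 to 121 and those of the probe sets 0 to 108, both highest without KO3. Where 1 array is left in a group, it is assumed to vary like the others. With the replicate number as block the counts were 23 over all arrays, 660 in replicates 4 and 5 and 85 in replicates 2 and 3, and Tnf passed in replicates 4 and 5 (adjusted p = 0.0375). Deviations of same-numbered arrays correlated at -0.42 in replicates 2 and 3 and -0.24 in replicates 4 and 5, so the numbers were not taken to pair the samples.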
